A study of Mus musculus with 18 samples.

Results

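The responses of mouse cells to 16aOHE (16-alpha-hydroxyestrone) and to E2 (estradiol) were set against each other while CYP1B1 was targeted by siRNA. The comparison holds 6 of the 18 RNA sequencing libraries of the series, 3 treated with 16aOHE and 3 with E2. They were chosen by their siRNA and estrogen labels. Of 15288 genes in the table, 11788 averaged at least 1 CPM (read counts scaled to the same total in every library) over these 6 libraries and were tested, and 3500 did not. The genes just outside that limit were Aipl1 at 0.9957, Tppp3 at 0.9952 and Csf3 at 0.9951 CPM, and those just inside were Mok at 1.0008, Tuba8 at 1.0016 and Kcnc2 at 1.0016 CPM.

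All 6 libraries came from cells with siRNA against CYP1B1 (siCYP1B1), transfected with 5 ul of a 10 uM stock in 60 mm dishes. At 24 hours after transfection the cells received E2 or 16aOHE, each at 1 uM, for 24 hours in medium with 5% serum. The 3 siCYP1B1 libraries with vehicle serve below as a reference, and the same pair of estrogens in cells with scrambled siRNA (3 libraries each) as the matching comparison. Dose and time were equal for both compounds, so 1 pair of compounds was compared at matched exposure. The labels name the cells pulmonary microvascular endothelial cells. Nothing in them tells if replicate libraries were grown as separate cultures. A p-value here thus measures only how far these libraries spread, and that spread may be technical.

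E2 is the main circulating estrogen. It binds nuclear estrogen receptors, which switch target genes on or off, and it is broken down in tissues by oxidising enzymes. CYP1B1 is a cytochrome that hydroxylates E2 and estrone outside the liver, and it is studied in the lung vasculature because estrogen metabolites are held to act on vascular cells. 16aOHE is one such metabolite: it has a ketone where E2 has a hydroxyl group on the D ring, and a further hydroxyl group beside it.

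The target of the siRNA was measured in every library first. Cyp1b1 (mm10, chromosome 17, 79706953 to 79715041, minus strand) stood at 100.4, 104 and 104 CPM with E2 and at 88.7, 90.2 and 91.5 CPM with 16aOHE. The 3 libraries with 16aOHE lay below the 3 with E2. The difference was -0.18 on the log2(CPM + 1) scale (SE 0.0345, adjusted p = 0.000759 by limma with Benjamini-Hochberg adjustment). A 2-sided exact permutation test on the 6 libraries gave p = 0.1, the smallest that 20 rearrangements allow. With vehicle, siCYP1B1 libraries held 80.8, 82.2 and 81.3 CPM. Scrambled libraries held 89.1 to 96.1 CPM with vehicle, 117 to 119 CPM with E2 and 105 to 108 CPM with 16aOHE, so the transcript was still abundant in every siCYP1B1 library.

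Esr1, which encodes estrogen receptor alpha, was at 13.5, 13.3 and 15.3 CPM with E2 and at 15.8, 13.5 and 13.5 CPM with 16aOHE. These values overlap, and the 95% interval of the Esr1 difference ran from -0.18 to 0.22. Esr2 and Gper1, the genes of estrogen receptor beta and the membrane estrogen receptor, stayed at or below 0.262 and 0.181 CPM in all 6 libraries.

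The cell label was compared with marker genes. The defining endothelial genes Pecam1 and Vwf reached at most 0.141 and 0.0943 CPM in the 6 libraries, and Sox18 was at 0 in all of them. Flt1 was at 51.8 to 56.5 CPM with E2 and Cd34 at 65.5 to 70.6 CPM. Some mesothelial genes were high: Msln was at 1336 to 1468 CPM with E2, Upk3b at 465 to 485 CPM and Wt1 at 192 to 206 CPM. Others of the mesothelial and epithelial list were low: Krt8, Epcam and Muc1 reached at most 0.472, 0.375 and 0.15 CPM. Krt7, Krt18, Cdh1 and Cldn15 reached at most 2.99, 3.25, 2.59 and 3.2 CPM. The fibroblast genes Col1a1 and Col3a1 ran from 1532 to 2056 and from 1393 to 2278 CPM over the 6 libraries, while Lum reached at most 0.0711 CPM. The smooth muscle genes Myh11 and Cnn1 reached at most 0.284 and 0.187 CPM, and the leukocyte gene Ptprc at most 0.0943 CPM. Other genes of these lists were present: over the 6 libraries, the smooth muscle genes Cald1, Smtn and Acta2 ran from 923 to 967, from 75.4 to 91 and from 12 to 18 CPM, and the leukocyte genes Cd14 and Cd68 from 21.2 to 23.7 and from 9.53 to 13.8 CPM. The measured profile therefore lacks defining endothelial transcripts, and the cells are called by their siRNA and treatment here.

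Within the 6 libraries, correlations of log2(CPM + 1) across genes were 0.9944 to 0.9978 within a group and 0.9919 to 0.9951 between groups. Estimated from the values, 1 CPM stood for 14.1 to 26.7 assigned reads. The shallowest library, 16aOHE replicate 1, stood apart on the second principal component, at 14.1 where the others lay between -6.1 and 3.8. The first component carried 46.3% of the variance and separated the estrogens, the second 24.3%.

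The estrogens gave different profiles in siCYP1B1 cells, in many genes and by small amounts. Of the 11788 genes, 2178 differed between 16aOHE and E2 at an adjusted p under 0.05 (18.5%): 783 were higher with 16aOHE (6.64%) and 1395 lower (11.8%). The median absolute difference of these genes was 0.24 on the log2(CPM + 1) scale, and 95 of them reached a 1.5-fold difference on that scale. A 2-fold difference on the same scale was reached by 4 higher genes (Pappa, Edn2, Angptl4 and Gm6093) and 4 lower genes (Mt2, Mt1, Fgfr1 and Gm6793). The added 1 CPM shrinks the differences of low genes. In plain CPM further called genes, such as Krt80 and Adcyap1r1, also passed 2-fold, and these were not counted. The predicted genes Gm6093 and Gm6793 are named here after their values were seen. The split by direction depends on scaling. As deposited, 36% of the called genes were higher with 16aOHE, against 59.2% after median-of-ratios scaling (1187 higher, 817 lower) and 51.9% after quantile normalization (960 higher, 889 lower). Each scaling moved the median of all genes by under 0.1 from its deposited value of -0.04. Without 16aOHE replicate 1, 2228 genes were called.

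**Figure D1:**
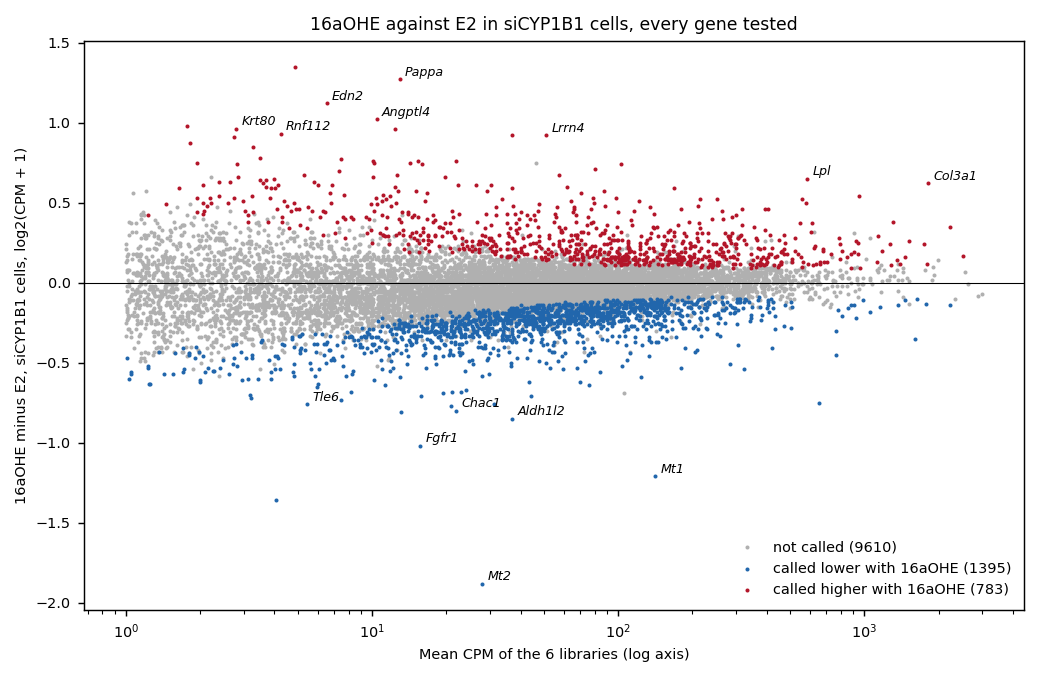
Difference between 16aOHE and E2 in siCYP1B1 cells on the log2(CPM + 1) scale against mean CPM of the 6 libraries (log axis). Each point is 1 of the 11788 genes tested. The 783 genes called higher are red, the 1395 called lower are blue, and Mt2 at -1.88 and Pappa at 1.27 lie among the genes farthest from 0.

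Against vehicle in siCYP1B1 cells, 3256 genes were called with E2 (27.6%), 1980 higher (16.8%) and 1276 lower (10.8%). With 16aOHE, 638 genes were called (5.41%), 302 higher (2.56%) and 336 lower (2.85%). Both comparisons use the same 3 vehicle libraries, and each shares 1 group with the comparison of the estrogens, so values are only set side by side. The count with 16aOHE was sensitive to single libraries: it was 380 without vehicle replicate 2, 314 without vehicle replicate 3 and 306 without 16aOHE replicate 2.

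Among the genes named by the selection rule, the metallothionein genes Mt2 and Mt1 had the largest differences in the direction of lower values with 16aOHE. Their small cysteine-rich proteins bind zinc and copper, and their promoters carry metal response elements that the zinc-sensing factor MTF1 binds. Both promoters are shown because both genes had a higher level with E2 than with 16aOHE by more than 2-fold. The sequences are from RefSeq (GRCm38.p6), 250 bases before to 30 bases after the annotated start, 5′ to 3′ on the gene's strand. Capitals mark matches to the metal response letters TGCACNC or TGCGCNC on either strand.
Mt2 (chr8:94172368-94172647, plus strand): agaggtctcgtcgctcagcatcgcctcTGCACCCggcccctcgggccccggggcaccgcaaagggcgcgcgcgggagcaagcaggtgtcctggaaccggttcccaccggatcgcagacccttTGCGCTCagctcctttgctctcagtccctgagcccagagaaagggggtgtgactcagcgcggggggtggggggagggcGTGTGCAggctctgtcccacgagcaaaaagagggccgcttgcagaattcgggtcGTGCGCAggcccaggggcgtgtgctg
Mt1 (chr8:94178839-94179118, plus strand): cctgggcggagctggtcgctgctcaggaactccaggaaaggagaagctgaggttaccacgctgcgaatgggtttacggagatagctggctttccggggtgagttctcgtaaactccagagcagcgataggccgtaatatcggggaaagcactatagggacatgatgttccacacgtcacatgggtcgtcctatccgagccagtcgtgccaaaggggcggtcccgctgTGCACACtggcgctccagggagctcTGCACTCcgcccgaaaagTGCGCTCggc

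The Mt2 window held 4 matches and the Mt1 window 3. These letters are common: among genes tested that have a promoter entry, 41% (3805 of 9284) held them in the 300-base window searched, and 28.2% of all 27025 genes in the promoter table did. By call, the shares were 42.5% of genes lower with 16aOHE, 40.4% of those higher and 40.8% of those not called. A match is a description of the window, not a measured site.

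Mt2 (chromosome 8, 94172618 to 94173567) stood at 45.9, 44.6 and 43.4 CPM with E2 and at 12.6, 10.3 and 11.3 CPM with 16aOHE. The groups were far apart, with means of 44.6 ± 1.27 and 11.4 ± 1.13 CPM (SD, n = 3), a ratio of 3.91. Vehicle libraries held 12, 13.8 and 12.8 CPM, next to the 16aOHE values. The difference between the estrogens was -1.88 (SE 0.0792, limma adjusted p = 1.71e-12). Against vehicle, E2 differed by 1.72 (limma adjusted p = 2.55e-12) and 16aOHE by -0.16 (limma adjusted p = 0.276).

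Mt1 (chromosome 8, 94179089 to 94180327) gave 197, 193 and 199 CPM with E2 and 95.5, 76.4 and 81.8 CPM with 16aOHE. Vehicle gave 91.2, 88.3 and 96.7 CPM, so only the E2 libraries were high. The Mt1 difference between the estrogens was -1.21 (SE 0.0732, limma adjusted p = 4.54e-10). Of the 9 tested genes for metallothioneins and zinc handling, 3 fell and 2 rose with 16aOHE relative to E2, against 11.8% and 6.64% of all genes. The 2 that rose were Slc39a10 and Slc39a6, both zinc importers, and Slc39a6 lost its call without E2 replicate 1 or without 16aOHE replicate 2. The zinc exporter Slc30a1 fell by 0.17 and Slc39a10 rose by 0.46, from 138, 156 and 161 CPM with E2 to 198, 218 and 210 CPM. Mtf1 was at -0.13 and did not pass the test.

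**Figure D2:**
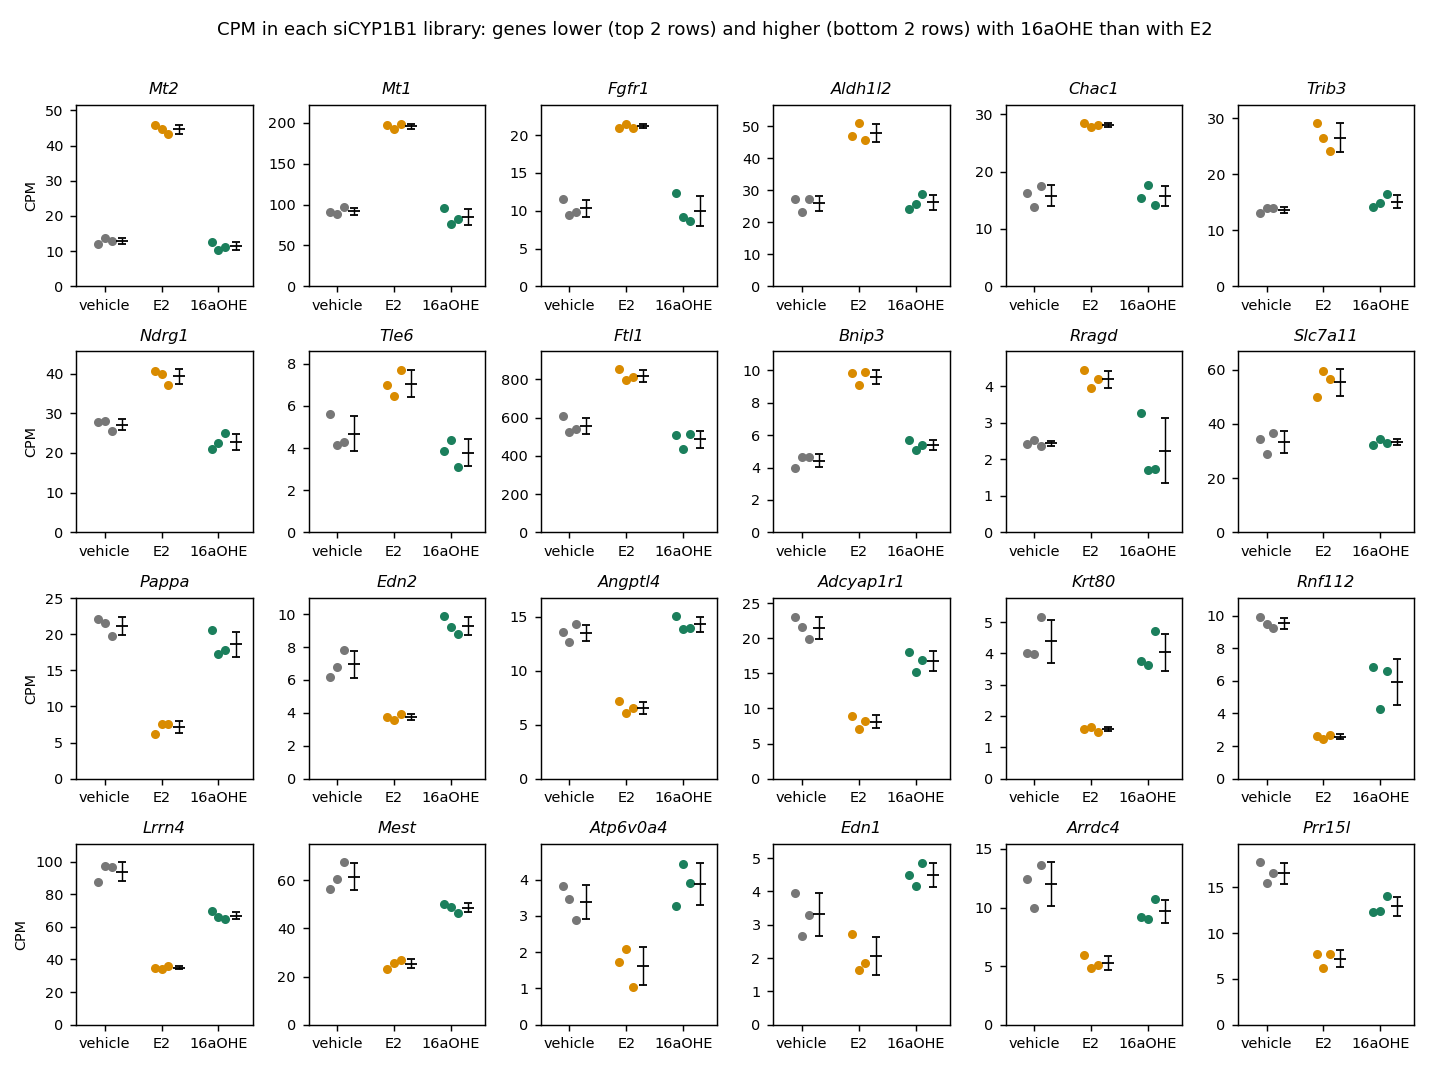
CPM in each siCYP1B1 library (points) with the group mean and SD (bars) for vehicle, E2 and 16aOHE, on linear axes from 0. The upper 12 panels show genes lower with 16aOHE than with E2, and the lower 12 genes higher; Mt2, for example, was at 43.4 to 45.9 CPM with E2 and at 10.3 to 12.6 CPM with 16aOHE.

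Genes of the lysosome and of autophagy were lower with 16aOHE than with E2. Of 21 tested, 17 fell and 1 rose, against 11.8% and 6.64% of all genes, and the list's median difference was -0.28 against -0.04 for all genes. Lysosomes degrade material taken up or delivered by autophagy, and many of their genes carry a shared E-box that the factors TFEB and TFE3 bind. Mcoln1, a lysosomal calcium channel, was at 74.5, 67.9 and 69.1 CPM with E2 and at 51.5, 44.5 and 49.1 CPM with 16aOHE. Its groups did not overlap, and its difference was -0.54 (SE 0.0637, limma adjusted p = 5.25e-06). With vehicle Mcoln1 was at 47.6, 47.5 and 50.8 CPM.

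Neu1, a lysosomal sialidase, fell by 0.49, from 82.6, 86.2 and 88.9 CPM with E2 to 58.2, 62 and 62.3 CPM. Sqstm1, the autophagy receptor p62, fell by 0.45, from 895, 883 and 876 CPM to 657, 635 and 654 CPM. Npc1, the lysosomal cholesterol exporter, fell by 0.43. In each of these 3 genes and in Mcoln1 the vehicle mean lay nearer the 16aOHE mean: 60.8 CPM for Neu1, 651 CPM for Sqstm1 and 65.6 CPM for Npc1. The member that rose was Tfeb itself, at 19.9, 19.9 and 19 CPM with E2 and 22.7, 21.2 and 23.8 CPM with 16aOHE (difference 0.19, limma adjusted p = 0.035). Over the leave-one-out fits, 16 to 18 of the 21 genes fell. None rose with only the 6 libraries compared, or when any 1 library other than 16aOHE replicate 2 was left out.

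The letters TCACGTG, taken here for that E-box, were searched on both strands in the 300-base promoter windows. They were held by 13.7% of the genes called lower with 16aOHE (150 of 1093 with an entry), by 5.12% of those called higher (31 of 606) and by 6.46% of those tested and not called (490 of 7585). The shares were 14% and 5.4% for genes called lower and higher after median-of-ratios scaling, and 15.1% and 5.01% after quantile normalization. Over all 27025 genes in the table the share was 4.29%. Of the lysosome and autophagy list, 6 of 16 genes with an entry held them (37.5%). Among the other lists the share ran from 0% to 25%, the highest in glucocorticoid receptor targets (3 of 12). These letters are thus not particular to lysosomal genes, a match is not a measured site, and which factor binds it was not tested. The windows of the 2 lysosome and autophagy genes with a match that fell most are shown, with matches in capitals.
Mcoln1 (chr8:3500269-3500548, plus strand): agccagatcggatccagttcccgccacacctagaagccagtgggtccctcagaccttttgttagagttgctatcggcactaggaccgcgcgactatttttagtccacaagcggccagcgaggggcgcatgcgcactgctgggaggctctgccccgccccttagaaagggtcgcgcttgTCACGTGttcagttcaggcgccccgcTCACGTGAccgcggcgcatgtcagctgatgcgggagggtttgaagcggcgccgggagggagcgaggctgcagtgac
Atp6v0d1 (chr8:105566035-105566314, minus strand): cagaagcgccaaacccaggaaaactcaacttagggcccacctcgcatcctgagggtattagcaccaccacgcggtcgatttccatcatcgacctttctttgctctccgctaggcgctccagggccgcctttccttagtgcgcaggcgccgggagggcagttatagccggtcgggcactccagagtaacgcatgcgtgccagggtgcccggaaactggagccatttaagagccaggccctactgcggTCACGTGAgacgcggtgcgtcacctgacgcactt

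In the Mcoln1 window the matches begin 72 and 46 bases before the start. In that of Atp6v0d1, a subunit of the proton pump that acidifies lysosomes, the match lies across the start. Atp6v0d1 was at 146, 149 and 153 CPM with E2 and at 119, 111 and 119 CPM with 16aOHE, a difference of -0.36 (limma adjusted p = 5.99e-06).

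Genes of amino acid and protein folding stress were more often lower than higher with 16aOHE relative to E2. Of 27 tested, 16 fell and 2 rose, against 11.8% and 6.64% of all genes, with a median of -0.27. The members that fell include the factors Atf4 and Ddit3 and genes known as their targets. Atf4 was at 299, 299 and 271 CPM with E2 and at 227, 228 and 235 CPM with 16aOHE (difference -0.33, limma adjusted p = 0.000115). Ddit3, which encodes CHOP, fell by 0.53, and Asns, which makes asparagine, by 0.56.

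Chac1, which degrades glutathione, was at 28.5, 27.7 and 28.2 CPM with E2 and at 15.4, 17.6 and 14.2 CPM with 16aOHE. Trib3, a pseudokinase induced in this response, was at 29.1, 26.4 and 24.1 CPM with E2 and at 14.1, 14.9 and 16.4 CPM with 16aOHE. Neither gene's groups overlapped: the differences were -0.80 (limma adjusted p = 1.1e-06) for Chac1 and -0.77 (limma adjusted p = 1e-06) for Trib3. With vehicle, Chac1 averaged 15.8 and Trib3 13.6 CPM. Aldh1l2, a mitochondrial folate enzyme, was at 47.1, 51 and 45.7 CPM with E2 and at 24, 25.8 and 28.8 CPM with 16aOHE, a difference of -0.85.

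The 2 members that rose were Hspa5 and Xbp1, which belong to the folding response of the endoplasmic reticulum. Dnajb9, a partner of BiP, and Herpud1, which serves the removal of misfolded proteins, belong to the same response and fell by 0.27 and 0.18 (limma adjusted p = 0.000842 and 0.00654). Hspa5, the chaperone BiP, was at 1268, 1309 and 1277 CPM with E2 and at 1315, 1469.7 and 1467 CPM with 16aOHE (difference 0.14, limma adjusted p = 0.0124). The chaperone genes Hsp90b1, Calr, Pdia4 and Pdia6 were at 0.08, 0.08, 0.04 and 0.08 and did not pass. The members of this response thus had no common direction. The count of 2 was not stable: 5 members rose after median-of-ratios scaling and 4 without 16aOHE replicate 1, but 1 rose by limma without trend, with only the 6 libraries compared or without any 1 E2 library, and 0 without 16aOHE replicate 2 or without 16aOHE replicate 3. Xbp1 lost its call in each of those fits without 1 library, other than that without 16aOHE replicate 1. In all of these settings 16 or 17 members fell.

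The letters TGATGNAA, read by ATF4 dimers, were held by 25% of this list's promoter windows (6 of 24), by 2.52% of the tested genes (234 of 9284) and by 4.51% of all genes in the promoter table. Among the other lists the share ran from 0% to 28.6%, the highest in estrogen receptor and coregulator genes (2 of 7). By call, the shares were 3.57% of genes lower with 16aOHE, 3.3% of those higher and 2.31% of those not called. The windows of the 2 list members with a match that fell most follow, with the match in capitals. Both matches are on the opposite strand.
Chac1 (chr2:119350992-119351271, plus strand): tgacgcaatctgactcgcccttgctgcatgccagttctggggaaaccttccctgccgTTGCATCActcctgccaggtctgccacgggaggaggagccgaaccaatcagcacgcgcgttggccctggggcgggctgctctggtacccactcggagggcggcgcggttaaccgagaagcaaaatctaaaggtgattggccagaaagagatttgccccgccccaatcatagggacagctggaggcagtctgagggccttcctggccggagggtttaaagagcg
Trib3 (chr2:152344031-152344310, minus strand): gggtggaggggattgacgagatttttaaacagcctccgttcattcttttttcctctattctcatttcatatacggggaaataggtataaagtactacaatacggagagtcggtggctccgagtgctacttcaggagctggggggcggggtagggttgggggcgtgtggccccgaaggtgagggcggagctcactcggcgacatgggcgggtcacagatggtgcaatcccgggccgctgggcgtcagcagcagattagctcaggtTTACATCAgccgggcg

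**Figure D3:**
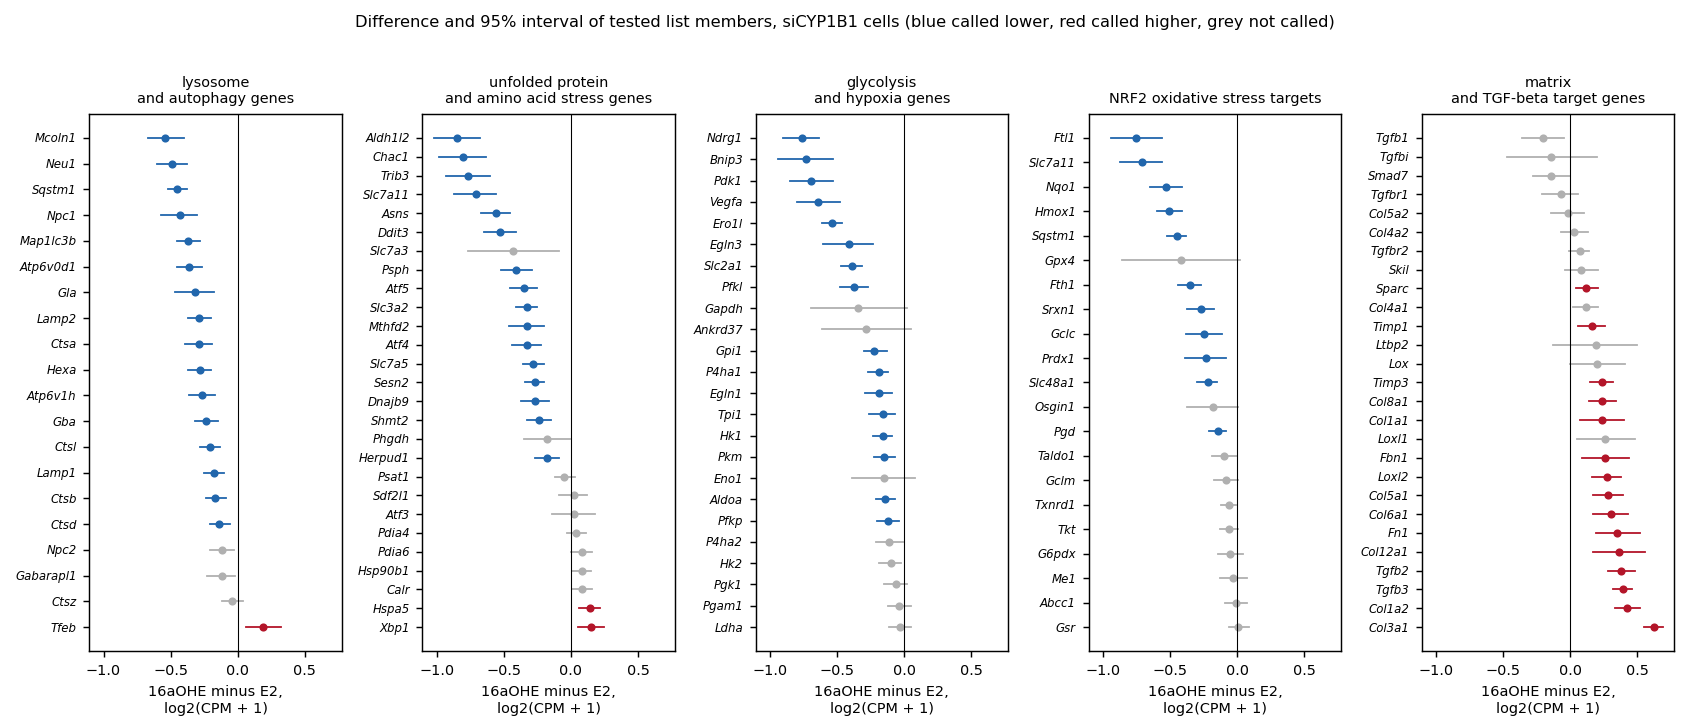
Difference between 16aOHE and E2 in siCYP1B1 cells on the log2(CPM + 1) scale, with its 95% interval, for tested members of 5 gene lists, with 1 member each of the lysosome and matrix lists not drawn. Points left of 0 are lower with 16aOHE, from Mcoln1 at -0.54 in the lysosome and autophagy list. The 15 members of the matrix and TGF-beta list called higher are red, up to Col3a1 at 0.62.

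Genes induced by low oxygen and genes of glycolysis were lower with 16aOHE than with E2. Of 24 tested, 16 fell and none rose, against 11.8% and 6.64% of all genes, with a median of -0.19. Ndrg1, a stress-induced gene, was at 40.7, 40 and 37.2 CPM with E2 and at 20.9, 22.5 and 25.1 CPM with 16aOHE, a difference of -0.76 (limma adjusted p = 8.33e-08). Bnip3, a mitophagy receptor, was at 9.83, 9.11 and 9.86 CPM with E2 and at 5.69, 5.05 and 5.41 CPM with 16aOHE. Pdk1, which restrains entry of pyruvate into mitochondria, fell by 0.69. In these 3 genes no library with 16aOHE reached the E2 values. Against vehicle, 12 of the 24 genes were higher with E2 and none lower (16.8% and 10.8% of all genes). With 16aOHE, 1 was higher than with vehicle and 2 were lower (2.56% and 2.85% of all genes).

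Vegfa, the main angiogenic growth factor, was at 101, 89.5 and 87.1 CPM with E2 and at 64.1, 55.4 and 57.9 CPM with 16aOHE. Vehicle libraries held 65.3, 54.5 and 58.4 CPM, so Vegfa with 16aOHE lay within the range of vehicle. The Vegfa difference was -0.64 (SE 0.0757, limma adjusted p = 5.25e-06). The glucose transporter Slc2a1 fell by 0.39 and Ero1l, an oxidase of the endoplasmic reticulum, by 0.54. The glycolytic genes Ldha and Pgk1 were at -0.03 and -0.06 and did not pass. After median-of-ratios scaling 11 members of the list fell, against 6.93% of all genes under that scaling.

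NRF2 is the factor that answers oxidative stress. Of 21 of its targets, 11 fell with 16aOHE relative to E2 and none rose, against 11.8% and 6.64% of all genes (median -0.22). Hmox1, heme oxygenase, was at 353, 328 and 316 CPM with E2 and at 238, 228 and 234 CPM with 16aOHE (difference -0.51, limma adjusted p = 2.38e-07). Nqo1, a quinone reductase that also acts on estrogen quinones, was at 203, 212 and 219 CPM with E2 and at 143, 144 and 152 CPM with 16aOHE (difference -0.53, limma adjusted p = 2.64e-06). Slc7a11, the cystine importer, fell by 0.71 and belongs to the amino acid stress list as well. The ferritin genes Ftl1 and Fth1 fell by 0.75 and 0.35, and both have processed copies in the genome, so their counts are uncertain. Gclm, Txnrd1 and Gsr, which serve glutathione and thioredoxin, were at -0.08, -0.06 and 0.01 and did not pass. Against vehicle, 12 of the 21 targets were higher with E2 and none lower (16.8% and 10.8% of all genes). With 16aOHE, 1 was higher than with vehicle and none lower (2.56% and 2.85% of all genes).

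Antioxidant response letters, TGACNNNGC on either strand, were in 43.8% of this list's windows (7 of 16), in 17.1% of the tested genes and in 14% of all genes in the promoter table. Among the other lists the share ran from 0% to 60%, and it was 42.9% for estrogen receptor targets (6 of 14). A high share is thus not particular to NRF2 targets. They were in 17.5% of genes called lower with 16aOHE, in 16.3% of those called higher and in 17.1% of those not called. Of the 7 list members with them, Srxn1, Pgd and Prdx1 fell, and Gclm, Txnrd1, G6pdx and Me1 did not pass. Motifs were searched separately, so a base can count in more than 1 of them.

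Among single genes lower with 16aOHE outside these lists, Fgfr1, a fibroblast growth factor receptor, was at 21, 21.5 and 21 CPM with E2 and at 12.3, 9.15 and 8.64 CPM with 16aOHE. Its vehicle libraries held 11.6, 9.42 and 9.84 CPM, and its difference was -1.02 (SE 0.113, limma adjusted p = 2.1e-06). Tle6, a transcriptional corepressor of the Groucho family, fell by 0.76 at a mean of 7.06 CPM with E2. Rragd, a GTPase that carries nutrient signals to the lysosome, fell by 0.72, with 16aOHE values of 3.27, 1.7 and 1.75 CPM of which the highest is from the shallowest library.

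Genes of vessel tone and of lipid handling were among those highest with 16aOHE relative to E2. Edn1 and Edn2 encode endothelins, vasoconstrictor peptides. Edn2 was at 3.72, 3.56 and 3.94 CPM with E2 and at 9.88, 9.2 and 8.8 CPM with 16aOHE. Vehicle gave Edn2 6.18, 6.81 and 7.83 CPM, between the estrogens. The Edn2 difference was 1.12 (SE 0.0963, limma adjusted p = 8.33e-08), and against vehicle E2 differed by -0.74 (limma adjusted p = 7.81e-06) and 16aOHE by 0.38 (limma adjusted p = 0.023).

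Edn1 was low in all groups, at 2.72, 1.65 and 1.84 CPM with E2 and at 4.48, 4.15 and 4.86 CPM with 16aOHE. The Edn1 groups did not overlap, with a difference of 0.85 (limma adjusted p = 0.000308). Against vehicle, Edn1 with 16aOHE differed by 0.36 and did not pass (limma adjusted p = 0.162). Ptgis, prostacyclin synthase, rose by 0.35, from 308, 314 and 314 CPM with E2 to 399, 398 and 394 CPM with 16aOHE. Of 18 tested vascular signalling genes, 7 rose and 2 fell, against 6.64% and 11.8% of all genes. The 2 that fell were Vegfa and Pdgfa.

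Lpl, lipoprotein lipase, was at 441, 451 and 474 CPM with E2 and at 713, 696 and 733 CPM with 16aOHE. Vehicle libraries held 427, 445 and 451 CPM. The Lpl difference between the estrogens was 0.65 (SE 0.0368, limma adjusted p = 1.65e-10). Against vehicle, Lpl with E2 differed by 0.05 (limma adjusted p = 0.385) and Lpl with 16aOHE by 0.69 (limma adjusted p = 1.73e-10).

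Angptl4, a secreted inhibitor of that lipase, was at 7.16, 6.07 and 6.52 CPM with E2 and at 15.1, 13.9 and 14 CPM with 16aOHE. Its vehicle values were 13.6, 12.7 and 14.3 CPM, and its difference between the estrogens was 1.02 (SE 0.101, limma adjusted p = 6.11e-07). Of 24 fatty acid genes, 11 rose and 2 fell with 16aOHE relative to E2, against 6.64% and 11.8% of all genes. The list's median was 0.12, and 1 gene fell without any 1 E2 library or without 16aOHE replicate 2. The desaturase Scd1 rose by 0.37 and the elongase Elovl6 by 0.30. Of 22 cholesterol synthesis genes 6 rose and 1 fell, against the same 6.64% and 11.8%. Only 3 rose by limma without trend, without E2 replicate 1, without E2 replicate 3 or without 16aOHE replicate 3. The 1 that fell, Tm7sf2, lost its call when any 1 library other than 16aOHE replicate 3 was left out.

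Pappa, a protease that releases insulin-like growth factors from their binding proteins, had the largest rise among the genes named by the selection rule. It was at 6.21, 7.61 and 7.61 CPM with E2 and at 20.6, 17.3 and 17.9 CPM with 16aOHE, near its vehicle values of 22.2, 21.6 and 19.8 CPM. The Pappa difference was 1.27 (SE 0.107, limma adjusted p = 7.92e-08). Its substrate gene Igfbp4 rose by 0.24, from 146, 131 and 137 CPM to 165, 163 and 162 CPM.

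Adcyap1r1, the receptor of the peptide PACAP, was at 8.97, 7.09 and 8.25 CPM with E2 and at 18.1, 15.2 and 16.9 CPM with 16aOHE, below the 19.9 to 23 CPM of vehicle. Mest, an imprinted gene, was at 23.1, 25.8 and 26.7 CPM with E2 and at 50.1, 49 and 46.3 CPM with 16aOHE, and its vehicle libraries held 56.2 to 67.3 CPM. For both genes the 3 libraries of 16aOHE lay between the E2 and the vehicle libraries. The differences from vehicle were -0.34 for Adcyap1r1 (limma adjusted p = 0.0265) and -0.33 for Mest (limma adjusted p = 0.002) with 16aOHE, and -1.31 (limma adjusted p = 1.55e-09) and -1.25 (limma adjusted p = 5.89e-12) with E2.

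The other genes with the largest rises were Krt80, an epithelial keratin (0.96), Rnf112, a RING finger protein gene (0.93), Atp6v0a4, a proton pump subunit (0.91), Arrdc4, an arrestin family gene (0.77), and Prr15l (0.76). Each averaged under 15 CPM in both groups. In Krt80, E2 gave 1.59, 1.65 and 1.5 CPM and 16aOHE 3.77, 3.63 and 4.7 CPM.

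Genes of the extracellular matrix were higher with 16aOHE than with E2. Of 28 tested matrix and TGF-beta genes, 15 rose and 1 fell, against 6.64% and 11.8% of all genes, with a median of 0.22. Col3a1, a fibrillar collagen, was at 1393, 1446 and 1464 CPM with E2 and at 2147, 2182 and 2278 CPM with 16aOHE. Its difference was 0.62 (SE 0.0337, limma adjusted p = 1.01e-10), and vehicle was higher still, at 2721, 2798 and 2669 CPM. Col1a2 rose by 0.42, Fn1, fibronectin, by 0.35, and the ligand genes Tgfb2 and Tgfb3 by 0.38 and 0.39.

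Tgfb2 was at 57.5, 58.8 and 59.4 CPM with E2 and at 83.1, 72.1 and 74.2 CPM with 16aOHE, and the 16aOHE libraries also lay above vehicle (65.1, 63.4 and 64.2 CPM). The receptors Tgfbr1 and Tgfbr2 were at -0.07 and 0.07 and did not pass, nor did Tgfb1 at -0.20. Over the leave-one-out fits 11 to 15 members of the matrix list rose, and 2 fell without 16aOHE replicate 1.

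Of 14 YAP target and CCN genes, 8 rose and 1 fell, against 6.64% and 11.8% of all genes. After median-of-ratios scaling 10 rose and 0 fell, against 10.1% and 6.93% of all genes. Ctgf, a matricellular protein gene, was at 76.6, 69.6 and 64.5 CPM with E2 and at 102, 112 and 99.8 CPM with 16aOHE, and Ctgf in vehicle libraries was at 82.1, 80.9 and 76.2 CPM. The Ctgf difference was 0.57 between the estrogens (limma adjusted p = 0.000308) and 0.39 between 16aOHE and vehicle (limma adjusted p = 0.0206). Cyr61 rose by 0.27, Ankrd1 by 0.27 and Wisp1 by 0.38.

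Markers of several cell types moved with these genes. Of 11 tested mesothelial and epithelial markers, 8 rose and none fell with 16aOHE relative to E2, against 6.64% and 11.8% of all genes (median 0.46). Lrrn4 was at 34.7, 34.2 and 36 CPM with E2 and at 69.4, 66.3 and 65 CPM with 16aOHE (difference 0.92, limma adjusted p = 9.42e-11), below its vehicle values of 87.3, 97.2 and 96.9 CPM. Upk3b, a uroplakin, rose by 0.50 and Wt1, a transcription factor of mesothelium, by 0.22. Msln was at 0.02 and did not pass. Krt18 rose by 0.98 at 0.675 to 3.25 CPM, and it has near-identical processed copies, so its value is uncertain.

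Of 7 tested fibroblast and pericyte markers, 5 rose and none fell, against 6.64% and 11.8% of all genes. The count that rose was 3 without 16aOHE replicate 2, after quantile normalization or by limma without trend. The collagen genes Col1a1, Col1a2 and Col3a1 of that list are also in the matrix list. Of 7 tested endothelial markers, 3 rose, Flt1, Esam and Mmrn2. Of 6 tested smooth muscle markers 1 rose, Acta2, by 0.41 (2 without 16aOHE replicate 2). Both counts stand against the same shares of all genes. Summed over all listed markers in the table, fibroblast and pericyte genes came to 3692 to 3799 CPM with E2, 4853 to 5049 CPM with 16aOHE and 5499 to 5783 CPM with vehicle. Mesothelial and epithelial genes came to 3031 to 3137, 3514 to 3658 and 3764 to 3929 CPM in the same order, endothelial genes to 144 to 150.3, 171 to 176 and 203 to 206 CPM, and smooth muscle genes to 1065 to 1075, 1032 to 1063 and 1029.8 to 1067 CPM. Few genes set some of these sums. Cald1, at 923 to 967 CPM over the 6 libraries, made up most of the smooth muscle sum there. Col1a1 and Col3a1 made up most of the fibroblast and pericyte sum. Leukocyte genes came to 32.9 to 35.7 CPM with E2 and 34 to 37.1 CPM with 16aOHE. Their part in the differences of other genes was not tested. In bulk RNA, fewer cells of a type and less RNA per cell cannot be told apart.

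**Figure D4:**
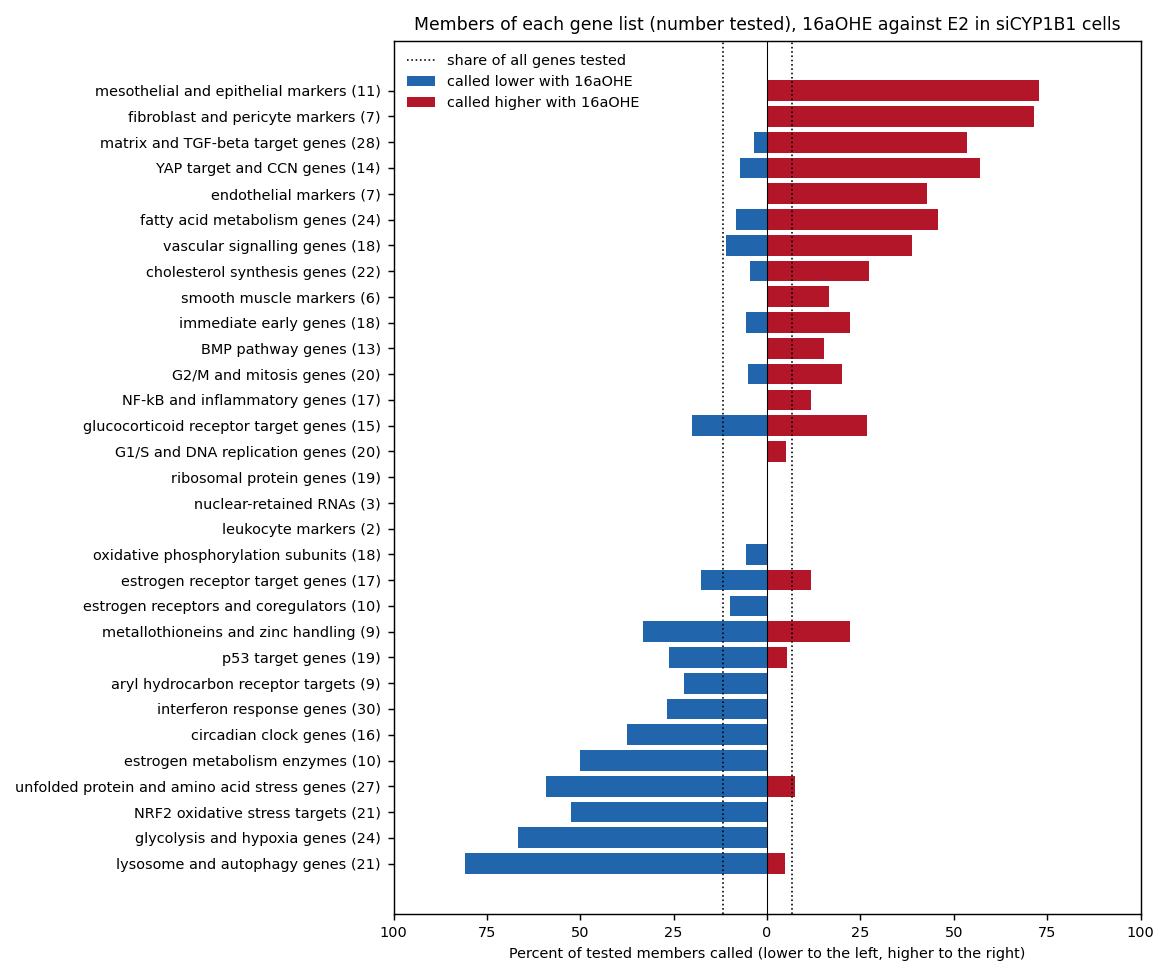
Percent of tested members of each gene list called lower (blue, to the left) or higher (red, to the right) with 16aOHE than with E2 in siCYP1B1 cells, with the number of tested members in brackets. Dotted lines mark the share of all genes tested, 11.8% lower and 6.64% higher. Lysosome and autophagy genes stand at one end with 17 of 21 lower, mesothelial and epithelial markers at the other with 8 of 11 higher.

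Among genes tied to estrogen by their known roles, enzymes of estrogen metabolism were lower with 16aOHE than with E2, and receptor targets were called in both directions. Of 10 enzymes of estrogen metabolism, 5 fell and none rose, against 11.8% and 6.64% of all genes. They were Cyp1b1, Nqo1, Hsd17b11, Hsd17b4 and Gstp1, at -0.18, -0.53, -0.23, -0.12 and -0.16. In scrambled cells 6 of the 10 fell and none rose (11.7% and 6.77% of all genes there). In siCYP1B1 cells 3 fell after median-of-ratios scaling, by limma without trend, without E2 replicate 1, without 16aOHE replicate 2 or without 16aOHE replicate 3. Of 17 tested estrogen receptor targets, 2 rose and 3 fell with 16aOHE relative to E2 (6.64% and 11.8% of all genes). After median-of-ratios scaling 4 rose and 1 fell (10.1% and 6.93% of all genes). Of those 17, Vegfa had the lowest difference. Without E2 replicate 3, 1 target rose and 1 fell, and 1 rose without E2 replicate 2, without 16aOHE replicate 2, without 16aOHE replicate 3 or by limma without trend. Of 10 estrogen receptor and coregulator genes, 1 fell, Ncoa7 at -0.27, and that call was lost after median-of-ratios scaling or quantile normalization, with only the 6 libraries compared, and when any 1 library other than E2 replicate 2 was left out. Of 9 aryl hydrocarbon receptor targets, 2 fell, Cyp1b1 and Nqo1, and 2 others rose after median-of-ratios scaling or quantile normalization and 1 without 16aOHE replicate 2.

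Clock-controlled genes gave 6 of 16 lower and none higher, against 11.8% and 6.64% of all genes. The count higher was 1 after median-of-ratios scaling or quantile normalization, without E2 replicate 1, without 16aOHE replicate 2 or without 16aOHE replicate 3. Dbp, a clock output factor, was at 88.1, 82.4 and 83.3 CPM with E2 and at 59.7, 49.5 and 55 CPM with 16aOHE (difference -0.62, limma adjusted p = 1.68e-06), next to vehicle at 59 to 61.2 CPM. Nr1d1, which encodes REV-ERB alpha, fell by 0.44, with 16aOHE values of 117, 78 and 88.9 CPM. Of 30 interferon response genes 8 fell and none rose, against the same shares of all genes. Rsad2, an antiviral enzyme gene, fell by 0.37, from 161, 151 and 150.4 CPM to 116, 115 and 125 CPM. The interferon count was 5 without E2 replicate 1 or without 16aOHE replicate 2.

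The counts in the next lists are to be read against the shares of all genes, 6.64% higher and 11.8% lower, or 10.1% and 6.93% after median-of-ratios scaling. Of 19 p53 targets 5 fell and 1 rose, and after median-of-ratios scaling 4 fell and 4 rose. Without 16aOHE replicate 1, 2 p53 targets rose. Of 15 glucocorticoid receptor targets 4 rose and 3 fell; Tsc22d3, the gene of GILZ, rose by 0.38 and Fkbp5, a chaperone, by 0.28, while Mt1 and Mt2 are among the 3. Of 18 immediate early genes 4 rose and 1 fell (7 and 1 after median-of-ratios scaling, 4 and 2 without 16aOHE replicate 1). Of 17 NF-kB and inflammatory genes 2 rose, Tnfaip3 and Il1rl1 (1 with a limit of 5 CPM). Of 13 BMP pathway genes 2 rose, Gdf6, a ligand, by 0.60 (limma adjusted p = 2.56e-05) and Id2 by 0.31 (limma adjusted p = 0.0448). The call of Id2 was lost without a filter on low values, with only the 6 libraries compared, and without E2 replicate 2, E2 replicate 3, 16aOHE replicate 1 or 16aOHE replicate 3, which left 1 BMP gene in each. Counts of 1 or 2 members in lists of this size lie near the shares of all genes and are no result about the lists.

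Genes of division had small differences, from -0.16 to 0.22 for mitosis and from -0.13 to 0.12 for DNA replication. Of 20 mitosis genes 4 rose and 1 fell, against 6.64% and 11.8% of all genes, with a median of 0.08. After median-of-ratios scaling 10 rose and 1 fell (10.1% and 6.93% of all genes), and after quantile normalization 6 and 1 (8.14% and 7.54%). The count that rose was 2 without 16aOHE replicate 1, without 16aOHE replicate 2 or without E2 replicate 2. Of 20 DNA replication genes 1 rose (0 without E2 replicate 1 or without 16aOHE replicate 3, and 1 fell without 16aOHE replicate 1). Of 18 oxidative phosphorylation subunits 1 fell, Sdha at -0.25 (2 without 16aOHE replicate 3). None of 19 ribosomal protein genes, 2 leukocyte markers and 3 nuclear-retained RNAs passed the test, though 1 ribosomal protein gene fell without E2 replicate 2 and 1 nuclear-retained RNA without 16aOHE replicate 1. Among the nuclear-retained RNAs, Neat1 varied within groups, from 102 to 162 CPM with E2 and from 44.9 to 148 CPM with 16aOHE, with replicate 1 the highest in both.

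The same pair of estrogens in scrambled cells, on 6 other libraries, gave 2177 called genes (18.5%), 798 higher (6.77%) and 1379 lower (11.7%) with 16aOHE. Both comparisons took each gene's spread from 1 fit over all 18 libraries, and the genes were those kept by the siCYP1B1 libraries. The 2 sets of calls are therefore not independent. With only the libraries compared, 1505 genes were called in siCYP1B1 and 1790 in scrambled cells, and their overlap was not counted. In the fit over all 18 libraries, 36.7% of the genes called in scrambled cells were higher, against 54.3% after median-of-ratios scaling and 49.3% after quantile normalization. In that fit as deposited, the same 1328 genes were called in the same direction in siCYP1B1 and scrambled cells, 61% of each list. Only 1 gene was called in opposite directions. That gene, Mrpl44, named after its values were seen, encodes a mitochondrial ribosomal protein and differed by 0.22 in siCYP1B1 and by -0.19 in scrambled cells. Of the 2178 genes called in siCYP1B1 cells, 98.2% had the same sign in scrambled cells, against 76.5% of all genes tested. Across genes the Pearson correlation of the differences was 0.70, given as a description because genes are not independent replicates.

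The same lists were counted in scrambled cells: 19 of 21 lysosome and autophagy genes fell, 16 of 27 amino acid and protein folding stress genes fell and 2 rose, 12 of 21 NRF2 targets fell, 11 of 24 hypoxia and glycolysis genes fell, 14 of 28 matrix genes rose and 8 of 11 mesothelial and epithelial markers rose. Of all genes there, 11.7% fell and 6.77% rose. Mt2 differed by -1.83, Mt1 by -1.39, Fgfr1 by -0.89, Pappa by 0.86, Edn2 by 0.82, Angptl4 by 0.86 and Lpl by 0.60 between the estrogens in scrambled cells.

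Whether the difference between the estrogens depends on the siRNA was tested by the interaction of both factors. None of the 11788 genes passed in limma (0%), with a smallest adjusted p of 0.386, and 502 genes (4.26%) had an unadjusted p under 0.05. No gene passed under any of the alternative settings or leave-one-out fits tried. A gene's 95% interval for this interaction reached, at the median, 0.19 to either side on the log2 scale, which is the size of many of the differences themselves, so an equal response is not shown. The siCYP1B1 difference minus the scrambled difference had a 95% interval from -0.28 to 0.18 for Mt2, from -0.03 to 0.40 for Mt1, from 0.09 to 0.72 for Pappa, from 0.02 to 0.58 for Edn2, from -0.50 to -0.06 for Vegfa and from -0.06 to 0.16 for Lpl. These intervals are not adjusted for the number of genes. The siCYP1B1 and scrambled arms held Cyp1b1 at 100.4 to 104 and 117 to 119 CPM with E2, and at 88.7 to 91.5 and 105 to 108 CPM with 16aOHE. The interaction thus compares arms between which most of the target transcript remained.

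**Figure D5:**
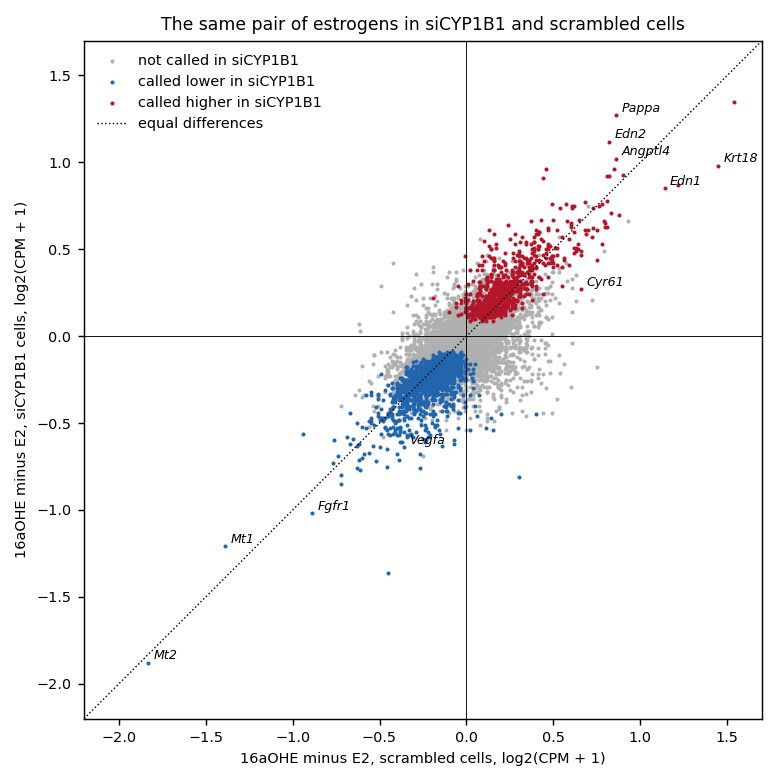
Difference between 16aOHE and E2 in siCYP1B1 cells against the same difference in scrambled cells, both on the log2(CPM + 1) scale, 1 point a gene, coloured by the call in siCYP1B1 cells. The dotted line marks equal differences; Mt2 lies at -1.88 and -1.83, and Cyr61, at 0.27 and 0.66, is among the labelled genes off the line.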

How the data were processed

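RNA sequencing libraries were prepared from 18 samples in 6 groups of 3. The authors deposited 1 table of CPM values for 15288 genes, with an offset of 1e-04 added to each value, judged from column sums of 1000001.5 to 1000001.6. TopHat2, Partek and mm10 are named in the submitters' processing notes, and further steps were not given in the sources used here. That offset was subtracted. Gene ends are the listed stop minus 1, since that matched RefSeq far more often than the stop itself (56.7% against 4.13% of 14902 matched symbols). Gene positions are the file's.

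The worth of 1 read, taken from the steps between low values, gave 14.1 to 26.7 reads per CPM in the 6 libraries and 14.1 to 38.5 in all 18, which is the depth in units of 1e+06 reads. Within 0.1 reads, 89.5% to 93.2% of values were whole, so values were not treated as counts. Replicate libraries differed by more than sampling noise in every pair, with a chi-square of 2.39 to 7.7 for each degree of freedom.

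Genes averaging 1 CPM or more across the 6 libraries entered limma 3.58.1 in R 4.3.3 on log2(CPM + 1), with 1 coefficient per group over all 18 libraries, a trend in the prior variance and Benjamini-Hochberg adjustment per comparison at 0.05. The log2 differences understate changes of low genes. The script was tested on simulated data. Named genes were Cyp1b1, Esr1 and Esr2, up to 12 called genes in each direction with the largest difference, no overlap between groups and a mean of at least 2 CPM (predicted genes, pseudogenes and small RNAs left out), up to 5 called members of each of 31 gene lists, and list members for their level. The comparison, the lists and the tests were chosen with earlier results of these data known. Promoter windows are RefSeq GRCm38.p6, 250 bases before to 50 after a start, matched by symbol (9284 of 11788 genes). Values of 2 list members are not reported here by name, and both stay in the counts.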

Additional observations from a re-analysis of the deposited data

How the results depend on the processing

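The number of genes called between 16aOHE and E2 in siCYP1B1 cells was 2178 as reported, 1505 with only the 6 libraries of the comparison, 2004 after median-of-ratios scaling, 1849 after quantile normalization, and 1453 to 2228 with 1 library left out. In scrambled cells it was 2177, and 1608 to 1808 with 1 library left out. For E2 against vehicle it was 3256, and 2530 to 2676 with 1 library left out. In each of these comparisons the counts stayed within 1.5 times the reported one under every setting tried. The count for 16aOHE against vehicle did not: 638 genes were called, 363 with only the 6 libraries compared, and 306 to 751 with 1 library left out. A fit with only the 6 libraries compared takes the spread from fewer samples. Under that setting the count for E2 against vehicle rose to 3617. The cause of these shifts was not tested. The direction split of E2 against vehicle also moved, from 60.8% higher as deposited to 46% after median-of-ratios scaling. Cyp1b1 stayed lower with 16aOHE and past the threshold in every setting. Of 114 named genes, none changed direction, and between 0 and 19 lost the call in a setting, the most without 16aOHE replicate 2. Depth limits genes near 1 CPM, which is 14.1 to 26.7 reads. No paired analysis was possible because the labels and columns carry no replicate numbers; those used here follow the order of the samples and only name libraries.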

Other observations

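Gm6093, a predicted gene outside the naming rule, was at 2.76, 2.14 and 1.84 CPM with E2, at 10.2, 6.51 and 5.61 CPM with 16aOHE and at 13.9, 9.56 and 10 CPM with vehicle in siCYP1B1 cells. Its difference was 1.35 in siCYP1B1 cells and 1.54 in scrambled cells (limma adjusted p = 2.66e-05 and 7.71e-06). In all 3 of these groups replicate 1 was the highest. Gm6793 was at 9.59, 2.53 and 6.1 CPM with E2 and at 0.233, 1.32 and 4.45 CPM with 16aOHE. Its groups overlapped, although its difference of -1.36 passed (limma adjusted p = 0.0304). Dynlt1b, a dynein light chain gene, was at 21.5, 13.2 and 15.7 CPM with E2 and at 13.7, 7.3 and 7.07 CPM with 16aOHE, a difference of -0.81 in siCYP1B1 cells, and differed by 0.30 in scrambled cells (limma adjusted p = 0.367). The interaction for Dynlt1b did not pass (limma adjusted p = 0.983). These genes were picked after their values were seen.

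Cyr61, a matricellular CCN gene, was at 174, 157 and 157 CPM with E2 and at 279.9, 238 and 254 CPM with 16aOHE in scrambled cells, against 163, 143 and 139 CPM and 186, 175 and 175 CPM in siCYP1B1 cells. The interaction was -0.38 and did not pass (limma adjusted p = 0.386, the smallest value this test gave).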
